A study of Mus musculus with 8 samples.

Results

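The genes of the MuvB core (Lin9, Lin37, Lin52, Lin54 and Rbbp4), of its partners B-Myb (Mybl2) and FoxM1 (Foxm1), and of the pocket proteins (Rb1, Rbl1 and Rbl2) were examined for sites bound by APOBEC2. These 10 genes were chosen by name, and a called peak was counted for a gene when it lay inside the gene or within 1 kb of its start or end. They stand among 21887 protein-coding genes of mouse chromosomes 1 to 19, X and Y. All 10 were found in the gene table. All 10 had a peak in at least 1 of 6 libraries, as did 4415 of the 21887 genes. APOBEC2 is a muscle-enriched member of the cytidine deaminase family, and its chromatin had been immunoprecipitated with a polyclonal antibody raised in rabbit and sequenced. The cells were C2C12, mouse myoblasts in culture that stop dividing and fuse into myotubes when serum is lowered. The groups were 3 immunoprecipitated (IP) libraries labelled 34 h after induction with 2% horse serum and 3 labelled 14 h, and each time had 1 input library. The growth protocol of the labels instead gives harvests at 24 h or 34 h, so the earlier time is uncertain. The names of the deposited lists carry the tag GFPsh in all 6 libraries, which the labels do not explain. Peak lists hold no expression values, so the identity of the cells could not be checked from them, and no library with a control antibody or from cells without APOBEC2 was used here.

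MuvB is a chromatin-bound core complex that changes partners through the cell cycle. In resting cells it joins a pocket protein of the p107/p130 type and a repressive E2F with its DP partner in the DREAM complex, which holds cell cycle genes silent. When cells divide it joins B-Myb and then FoxM1 and activates genes of G2 and mitosis, whose promoters often carry the CHR element that the LIN54 subunit reads. In muscle, the pocket protein Rb is known for keeping myotubes from re-entering the cell cycle.

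The lists held 2209, 5025 and 1068 peaks in replicates 1, 2 and 3 of 34 h and 768, 1327 and 797 peaks in those of 14 h. The lists give no read totals. The number of IP fragments at each summit could be solved from the caller's own values, and its median was 19 to 21 at 34 h and 22 to 24 at 14 h. No listed summit stood on fewer than 10 fragments. A gene without a peak is therefore one where none was detectable at this depth, and not one shown to be unbound. The labels do not say that replicates were separate cultures, so the spread between libraries may be technical.

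Promoter sequences show where the recurrent peaks sat. RefSeq windows of GRCm38.p6, the assembly of mm10, were matched for 7 of the 10 genes (Lin37, Lin52, Lin54, Rbbp4, Mybl2, Rbl1 and Rbl2), with Lin54 represented by 2 starts. Each window runs from 250 bases before to 50 after a transcript start, and those below are shown because a peak of at least 2 libraries of a time fell on or beside them. Capitals mark E2F words (TTCCCGC or TTGGCGC or TTCGCGC or TTGCCGC, and a second form, TTGGCGG, added after the sequences had been seen), CHR words (TTTGAA and TTCGAA) and CCAAT boxes on either strand.
Mybl2 (chr2:163054385-163054684, plus strand): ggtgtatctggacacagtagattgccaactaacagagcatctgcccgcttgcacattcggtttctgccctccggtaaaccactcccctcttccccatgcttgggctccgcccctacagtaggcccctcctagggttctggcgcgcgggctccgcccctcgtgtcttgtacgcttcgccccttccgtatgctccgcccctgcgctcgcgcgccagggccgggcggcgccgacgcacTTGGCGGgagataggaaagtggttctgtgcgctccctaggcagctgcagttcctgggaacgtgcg
Rbl1 (chr2:157204485-157204784, minus strand): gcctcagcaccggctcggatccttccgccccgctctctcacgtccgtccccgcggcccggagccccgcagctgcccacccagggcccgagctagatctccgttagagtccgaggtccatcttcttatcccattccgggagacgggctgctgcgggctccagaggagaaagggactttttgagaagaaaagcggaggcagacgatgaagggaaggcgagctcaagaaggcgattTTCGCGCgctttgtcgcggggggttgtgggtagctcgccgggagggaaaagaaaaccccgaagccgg
Lin54, outer start (chr5:100500590-100500889, minus strand): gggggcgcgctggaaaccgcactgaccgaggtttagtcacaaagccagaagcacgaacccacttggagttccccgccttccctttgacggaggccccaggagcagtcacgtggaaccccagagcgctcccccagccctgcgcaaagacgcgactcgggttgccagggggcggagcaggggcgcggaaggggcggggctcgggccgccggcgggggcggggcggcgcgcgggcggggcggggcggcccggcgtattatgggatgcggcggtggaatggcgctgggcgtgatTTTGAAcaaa
Lin54, inner start (chr5:100498524-100498823, minus strand): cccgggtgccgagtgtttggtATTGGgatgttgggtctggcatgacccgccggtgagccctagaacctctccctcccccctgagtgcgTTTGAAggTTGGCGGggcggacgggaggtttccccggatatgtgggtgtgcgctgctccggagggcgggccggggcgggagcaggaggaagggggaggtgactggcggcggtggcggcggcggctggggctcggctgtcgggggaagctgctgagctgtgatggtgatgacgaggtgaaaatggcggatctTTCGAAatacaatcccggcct
Lin52 (chr12:84451258-84451557, plus strand): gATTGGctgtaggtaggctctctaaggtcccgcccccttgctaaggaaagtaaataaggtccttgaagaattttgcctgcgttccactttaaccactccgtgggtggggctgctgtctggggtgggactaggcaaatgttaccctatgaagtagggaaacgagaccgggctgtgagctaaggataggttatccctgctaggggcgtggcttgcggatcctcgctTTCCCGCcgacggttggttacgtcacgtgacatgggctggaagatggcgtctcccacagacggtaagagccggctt
Rbl2 (chr8:91069807-91070106, plus strand): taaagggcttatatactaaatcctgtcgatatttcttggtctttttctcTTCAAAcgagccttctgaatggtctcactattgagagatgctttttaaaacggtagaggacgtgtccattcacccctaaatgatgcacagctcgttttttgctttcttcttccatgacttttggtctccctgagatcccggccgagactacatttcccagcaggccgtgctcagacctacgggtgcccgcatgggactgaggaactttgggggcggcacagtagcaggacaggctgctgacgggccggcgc

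The Mybl2 window carried TTGGCGG with its first base 15 bases before the transcript start, within the range of the 6 summits, which lay 39 to 8 bases before that start. The Rbl1 window carried TTCGCGC 17 bases before the start, again inside the span of its 6 summits, from 70 bases before to 21 bases after it. At the outer Lin54 start, a TTTGAA word began 40 bases after the start, and the summits of all 6 libraries lay 56 to 103 bases after it, just past the end of the window. The inner Lin54 window held TTTGAA 162 bases before its start and TTCGAA 29 bases after it. The Lin52 window held TTCCCGC 26 bases before its start, whereas the summits of 34 h lay 413 and 327 bases before that start and the summit of 14 h lay 41 bases after it. In Rbl2, the reverse of a CHR word stood 201 bases before the start, far from the summits at 2 and 10 bases after it. Over the 8 member windows, CHR words were present in 4, E2F words of the first form in 3, the second form in 3 and CCAAT boxes in 4. Of 21263 windows of all genes, 17.6%, 12.1%, 3.37% and 38.2% held them. The second form was chosen after these sequences had been seen, so neither its count nor its place at Mybl2 is a test. The GC box (GGGCGG, which SP and KLF factors read) was present in 8 of 8 windows and in 46.2% of all windows. The member windows held from 50.7% (Rbl2) to 71.0% (outer Lin54 start) G and C, beside a median of 56.3% over all windows. All but Lin52 and Rbl2 lay above that median, and composition was not matched in these counts. The loose MYB word AACNG was in 6 of 8 and in 79.1% of all windows, and the forkhead word TAAACA was in 0 of 8 and in 11.5%. Both strands were searched, a TTGGCGC and the reverse of TTCGCGC overlapped in Rbbp4, and a match of letters is not evidence of a bound factor.

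The question for these genes was which of them carried APOBEC2 signal at each time. A gene was called at a time when at least 2 of its 3 libraries had a peak. At 34 h, 7 of 10 members were called (Lin9, Lin52, Lin54, Mybl2, Foxm1, Rb1 and Rbl1), beside 9.01% of all protein-coding genes. At 14 h, 6 of 10 were called (Lin9, Lin54, Mybl2, Foxm1, Rbl1 and Rbl2), beside 4.27% of all genes. The 5 genes called at both times had a peak in all 6 libraries, as did 2.26% of all genes; 3.5% of all genes were called at both times. By role, 3 of 5 MuvB core genes were called at 34 h and 2 of 5 at 14 h, B-Myb and FoxM1 were both called at both times, and 2 of 3 pocket protein genes were called at each time. Members had peaks in 7, 9 and 5 of 10 genes in replicates 1, 2 and 3 of 34 h, where 9.24%, 18.1% and 4.7% of all genes did. In the replicates of 14 h, 5, 6 and 7 of 10 had one, beside 3.72%, 6.5% and 3.97%. Without replicate 1 or without replicate 2 of 34 h the count of that time was 5, and without replicate 2 or 3 of 14 h it was 5. With each list held to its 768 most significant peaks, as many as the shortest list had, 4 members were called at 34 h, beside 3.16% of all genes, and 5 at 14 h, beside 3.76%.

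**Figure D1:**
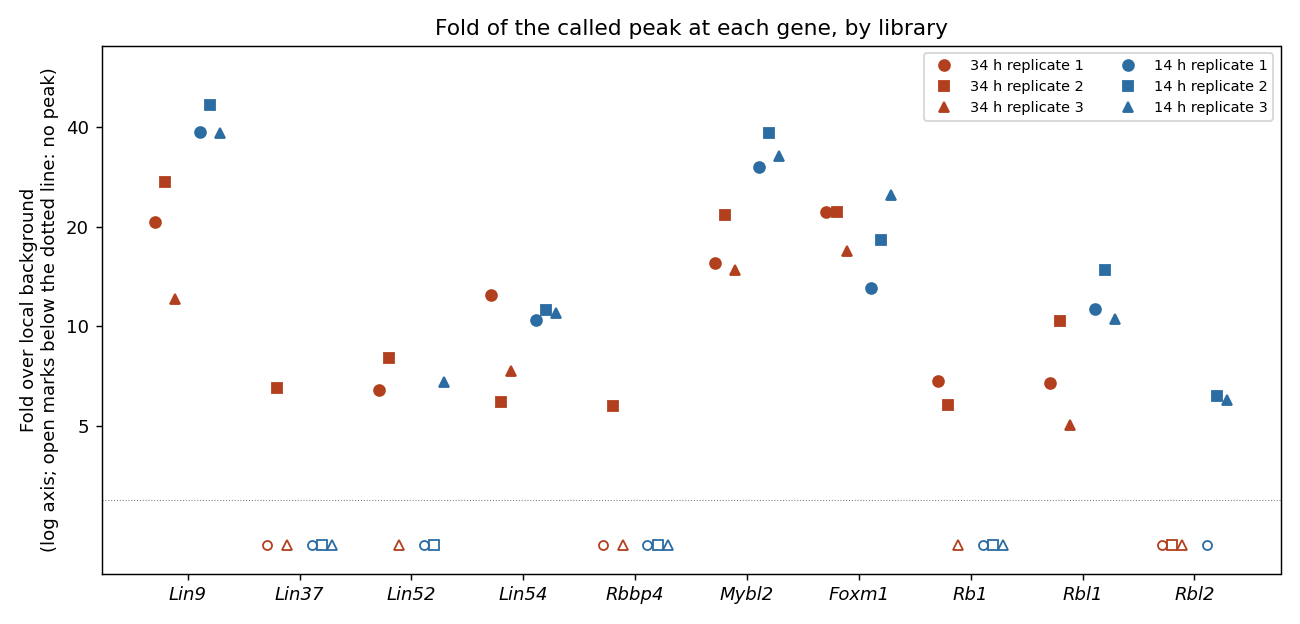
Fold of the called peak over local background (log axis) for each gene, with 34 h libraries left of 14 h libraries and 1 mark per library. Open marks below the dotted line are libraries with no peak; only the outer Lin54 start is drawn. Lin9, Lin54, Mybl2, Foxm1 and Rbl1 have filled marks in all 6 libraries.

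Among the MuvB core genes, Lin9 had the tallest signal. LIN9 is the subunit through which the complex supports activation of mitotic genes. Its region (mm10 chr1:180641015-180641633) covered the lower-coordinate end of the gene, with summits 143 to 199 bases inside it. Fold over local background, the authors' value from their peak caller, was 20.6, 27.3 and 12.1 in replicates 1, 2 and 3 of 34 h and 38.5, 46.4 and 38.4 in those of 14 h. All 14 h libraries were above all 34 h libraries, and the mean was 20.0 ± 7.60 at 34 h and 41.1 ± 4.60 at 14 h (SD over 3 libraries). Lower fold at 34 h was not particular to Lin9. Of 428 regions with a peak in all 6 libraries, 77 had a higher mean fold at 34 h. Their median fold was 9.62, 12.3 and 7.57 in the 34 h replicates and 11.3, 17.3 and 12.0 in the 14 h replicates. The share of these regions without overlap on fold was not counted. By significance within its own list, the Lin9 peak stood 21st, 11th and 61st at 34 h and 2nd, 14th and 2nd at 14 h. Its peaks were 475 ± 79.5 bp wide at 34 h and 524 ± 70.6 bp wide at 14 h.

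Lin54, which encodes the DNA-binding subunit, had a lower and narrower signal. At its outer start (chr5:100500298-100500680), fold was 12.4, 5.92 and 7.34 in the 34 h replicates and 10.4, 11.2 and 11.0 in the 14 h replicates. The times overlapped, and the 34 h libraries spread more widely, with means of 8.57 ± 3.43 at 34 h and 10.9 ± 0.402 at 14 h (SD over 3 libraries). A separate peak stood at the inner start (chr5:100498391-100498834), 2019 to 2129 bases inside the gene. It was called in replicates 1 and 2 of 34 h, with folds of 6.20 and 8.36, and in replicate 2 of 14 h, with a fold of 6.49. In replicate 2 of 34 h the inner peak was the taller, and in replicate 1 of 34 h and replicate 2 of 14 h the outer one was.

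The other core genes gave single or sparse peaks. Lin52, whose product links MuvB to a pocket protein or to B-Myb, had peaks in replicates 1 and 2 of 34 h, with folds of 6.41 and 8.05, and in replicate 3 of 14 h, with a fold of 6.82. The summits of 34 h lay 413 and 327 bases outside the gene and that of 14 h lay 41 bases inside it. The Lin52 region also lies near Aldh6a1, a mitochondrial dehydrogenase gene whose boundary (84451024) is 484 bases from that of Lin52 (84451508). The summits of 34 h, at 84451095 and 84451181, lay between these boundaries and nearer to Aldh6a1. The summit of 14 h lay nearer to Lin52. The peaks cannot be assigned to one of the genes. Lin37, whose product is needed for repression by DREAM, had 1 peak, in replicate 2 of 34 h with a fold of 6.54. Rbbp4, which encodes a histone-binding protein shared with other chromatin complexes, also had 1 peak in that library, with a fold of 5.74. The peak covered the Rbbp4 start, with its summit 2 bases outside the gene. It did not reach the Zbtb8os boundary, which is 162 bases from that of Rbbp4. Replicate 2 of 34 h had the longest list, and 7.85% of all genes had a peak in it and in no other library. Just outside the 1 kb limit, the nearest further peak was 2953 bases from Lin37, with a fold of 6.20 in that same library. No other member had an outside peak nearer than 10159 bases.

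B-Myb and FoxM1, the activators that join MuvB, were both found in all 6 libraries. Mybl2 (chr2:163054421-163054859) had folds of 15.5, 21.7 and 14.8 in the 34 h replicates and 30.2, 38.4 and 32.7 in the 14 h replicates. All 34 h libraries lay below all 14 h libraries, with means of 17.3 ± 3.76 at 34 h and 33.7 ± 4.19 at 14 h (SD over 3 libraries). Most regions with a peak in all 6 libraries also had a lower mean fold at 34 h. How many of them had no overlap on fold was not counted. The 6 summits lay within 31 bases of each other.

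Foxm1 (chr6:128362678-128363118) had folds of 22.2, 22.2 and 16.8 in the 34 h replicates and 13.1, 18.2 and 25.0 in the 14 h replicates. The times overlapped, with means of 20.4 ± 3.10 at 34 h and 18.8 ± 5.96 at 14 h (SD over 3 libraries). Its summits lay 52 to 105 bases outside the gene, in the interval of 83 bases that separates it from Rhno1, a DNA damage checkpoint gene, or just across the Rhno1 boundary. The same peaks therefore belong as much to Rhno1 as to Foxm1.

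The pocket protein genes differed in which libraries had a peak. Rbl1, which encodes the pocket protein p107, had folds of 6.74, 10.4 and 5.04 in the 34 h replicates and 11.3, 14.8 and 10.6 in the 14 h replicates (chr2:157204376-157204928). All 34 h libraries were below all 14 h libraries, with means of 7.39 ± 2.73 at 34 h and 12.2 ± 2.27 at 14 h (SD over 3 libraries). Lower mean fold at 34 h was common among regions found in every library, and the share of those without overlap on fold was not counted. The 34 h replicate 3 peak of Rbl1 was the least significant of all member peaks, with a −log10 q of 4.27. Rb1, the founding tumour suppressor of the family, had a peak in replicates 1 and 2 of 34 h and in 0 of 3 libraries of 14 h (chr14:73325719-73326113). Its folds were 6.87 and 5.80, on 17 and 16 fragments at the summit, with exact 95% Poisson intervals of 9.90 to 27.2 and 9.15 to 26.0 that cover counting error only. Rbl2, which encodes p130, the main pocket protein of DREAM, had the reverse, with 0 of 3 libraries at 34 h and replicates 2 and 3 of 14 h (chr8:91069990-91070265). Its folds were 6.17 and 6.02, on 20 and 17 fragments. A peak at 34 h and not at 14 h by the same call rule was found for 5.51% of all genes, and at 14 h and not at 34 h for 0.768%. For Rb1 and for Rbl2, 2 libraries against 0 gave an exact two-sided permutation p of 0.4 and an adjusted p of 1.0 over the 4415 genes with any peak. The Rb1 call was lost without replicate 1 or 2 of 34 h and the Rbl2 call without replicate 2 or 3 of 14 h. Both calls were also lost with lists of equal length.

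**Figure D2:**
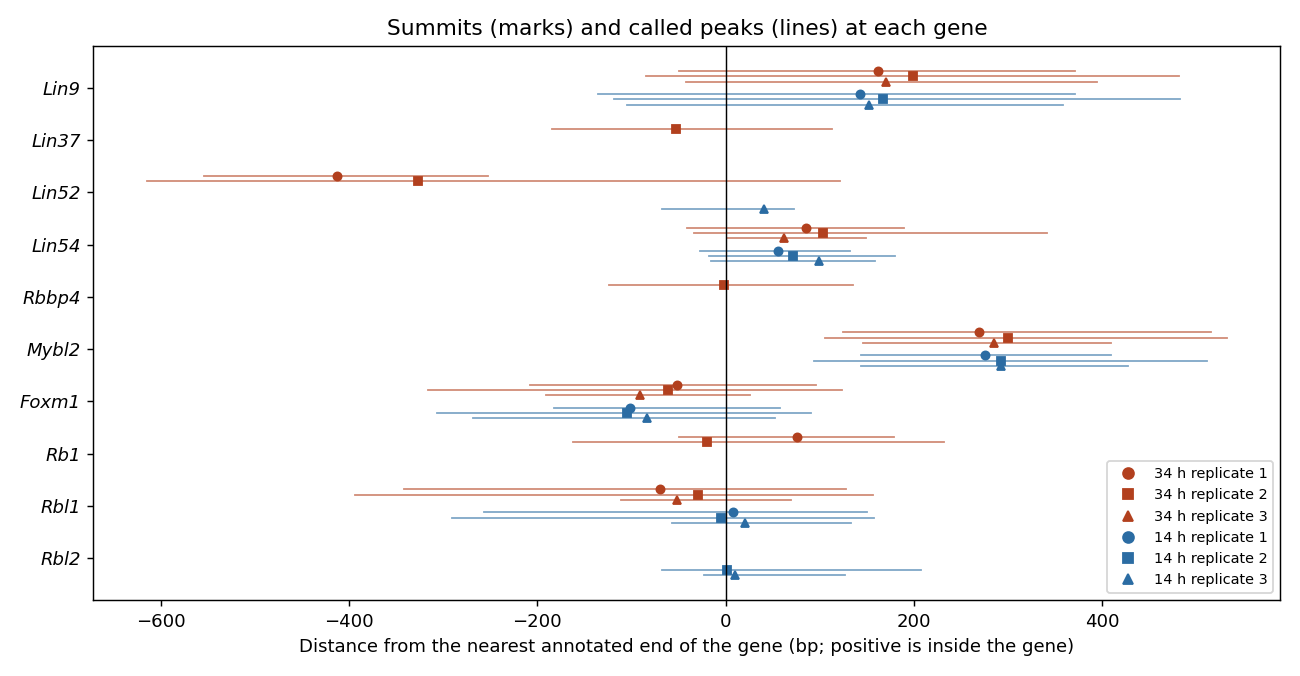
Position of each summit (mark) and called peak (line) relative to the nearest annotated end of the gene, in bp, positive inside the gene, with 34 h libraries above 14 h libraries for each gene. Every drawn summit lies within 413 bp of that end, and the Rbl1 summits of 34 h lie outside those of 14 h.

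Summit positions were compared between times at the 5 genes found in all 6 libraries. At Rbl1 the summits of 34 h lay 70, 29 and 52 bases before the gene start, whereas those of 14 h lay 8 bases after, 5 bases before and 21 bases after it. The positions did not overlap and their means differed by 58.3 bases (two-sided exact permutation p = 0.1, the lowest value open to 3 against 3 libraries, and adjusted p = 0.648 over 428 regions). Of 428 regions with a peak in all 6 libraries, 15.4% had summits that did not overlap between times, and the median distance between mean summits was 13.2 bases. At Lin9, Lin54, Mybl2 and Foxm1 the summits overlapped, with mean distances of 23.0, 7.67, 2.33 and 28.7 bases and exact permutation p from 0.2 to 1.0.

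How the signal of each gene stood relative to other shared sites was read from ranks within the 428 regions. Across these regions the ratio of mean fold, 34 h over 14 h, had a median of 0.752, so lower folds at 34 h were the common pattern. The ratio was 0.487 for Lin9 and 0.514 for Mybl2, below which lay 28 and 39 of the 428 regions. It was 0.605 for Rbl1 (107 regions below), 0.787 for Lin54 (241 below) and 1.09 for Foxm1 (367 below). Mybl2 ranked 62nd, 47th and 37th by fold in the 34 h replicates and 12th, 23rd and 10th in the 14 h replicates. Lin9 ranked 21st, 16th and 65th at 34 h and 2nd, 10th and 3rd at 14 h, and Rbl1 ranked 338th, 275th and 378th at 34 h and 218th, 258th and 258th at 14 h. All 3 ranked lower in every 34 h library than in every 14 h library, as did 17.5% of the 428 regions. Ranked by −log10 p instead, Mybl2 and Rbl1 still did, beside 14.0% of regions, and Lin9 overlapped between times. Foxm1 ranked 13th, 42nd and 17th at 34 h and 164th, 200th and 30th at 14 h, with the overlap between replicate 2 of 34 h and replicate 3 of 14 h. Lin54 ranked 117th, 388th and 236th at 34 h and 238th, 328th and 241st at 14 h, and its times overlapped. These ranks are descriptions, and fold was not tested between times.

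**Figure D3:**
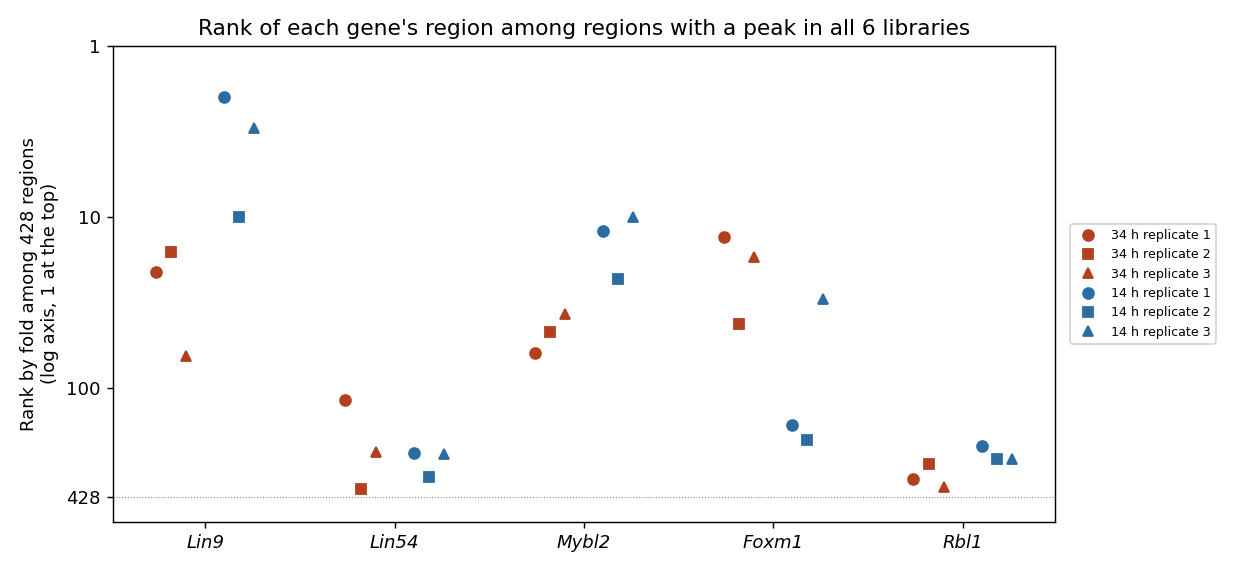
Rank by fold (log axis, 1 at the top) of each gene's region among the 428 regions with a peak in all 6 libraries, with 34 h libraries left of 14 h libraries. Lin9, Mybl2 and Rbl1 stand lower in all 34 h libraries than in all 14 h libraries, and Foxm1 and Lin54 overlap.

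The fold is a quotient, and its parts did not move alike at these genes. IP fragments at the Lin9 summit numbered 72, 113 and 47 at 34 h and 86, 117 and 90 at 14 h, and the local background was 2.54, 3.18 and 2.96 fragments at 34 h and 1.26, 1.54 and 1.37 at 14 h. The fragment counts of the times overlapped whereas the backgrounds did not. By the list names, the 3 libraries of a time were called with the same 1 input. Their backgrounds are therefore not 3 independent measurements, and the fold SDs leave out variation between inputs. Mybl2 had 54, 74 and 45 fragments at 34 h and 66, 88 and 75 at 14 h, which overlapped, on backgrounds of 2.54, 2.46 and 2.11 at 34 h and 1.22, 1.32 and 1.33 at 14 h, which did not. Foxm1 had 54, 60 and 41 fragments at 34 h and 44, 72 and 58 at 14 h. Its background was 1.48, 1.75 and 1.50 fragments at 34 h and 2.44, 3.00 and 1.36 at 14 h. Across the 428 regions the median ratio of mean background, 34 h over 14 h, was 1.51 and that of mean fragments was 0.962. The background ratio was 0.694 for Foxm1, with 13 of 428 regions lower, and 2.08 for Lin9, 1.84 for Mybl2, 1.62 for Rbl1 and 1.44 for Lin54. The fragment ratio was 0.792 for Lin9, 0.755 for Mybl2, 0.817 for Rbl1, 0.891 for Foxm1 and 0.955 for Lin54. The part of the background in the fold of each gene was not tested, and the share of regions without overlap on background was not counted.

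**Figure D4:**
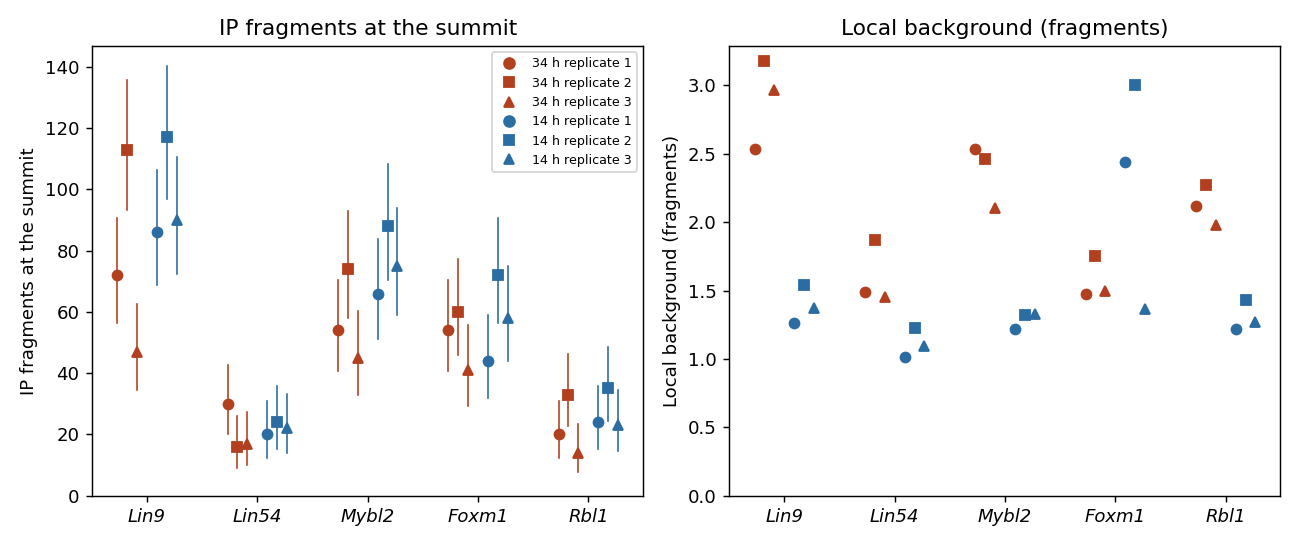
IP fragments at the summit with exact 95% Poisson intervals (left) and local background in fragments (right) for the genes found in all 6 libraries, with 34 h libraries left of 14 h libraries. Backgrounds of Lin9, Lin54, Mybl2 and Rbl1 are higher in every 34 h library than in every 14 h library, as are the median backgrounds of all shared regions (not drawn). The 3 libraries of a time share 1 input, and the share of regions without overlap on background was not counted. The Foxm1 background is highest in replicates 2 and 1 of 14 h.

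Other genes of the pathway were counted by the same rule, in lists written with earlier results of these data known. Of 24 G2/M targets of B-Myb-MuvB and FoxM1, 21 were called at 34 h and 22 at 14 h, beside 9.01% of all genes at 34 h and 4.27% at 14 h. The tallest were the spindle checkpoint kinases Ttk (fold 32.0 ± 9.07 at 34 h and 46.7 ± 13.2 at 14 h) and Bub1 (25.9 ± 4.06 at 34 h and 38.5 ± 9.07 at 14 h), the passenger complex gene Incenp (29.1 ± 8.88 at 34 h and 45.3 ± 11.5 at 14 h) and the mitotic kinesin gene Kif20a (28.9 ± 3.88 at 34 h and 30.7 ± 12.7 at 14 h). Cdc20, the anaphase activator, was called at 14 h alone, with 1 of 3 libraries at 34 h and 2 of 3 at 14 h. Such calls at 14 h alone were found for 0.768% of all genes. Of 24 G1/S targets of E2F and pocket proteins, 17 were called at 34 h and 18 at 14 h. They were led by the ribonucleotide reductase genes Rrm2 (23.8 ± 7.27 at 34 h and 44.7 ± 14.3 at 14 h) and Rrm1 (13.0 ± 2.54 at 34 h and 13.9 ± 1.92 at 14 h), the helicase gene Mcm3 (12.9 ± 4.31 at 34 h and 23.4 ± 4.27 at 14 h) and the helicase cofactor gene Gins2 (12.1 ± 1.89 at 34 h and 17.6 ± 3.01 at 14 h). Tk1, the thymidine kinase gene, had 1 of 3 libraries at 34 h and 3 of 3 at 14 h.

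Among the E2F and DP partners, 7 of 10 were called at 34 h and 5 of 10 at 14 h, beside 9.01% and 4.27% of all genes. The activator gene E2f3 was the tallest (20.9 ± 5.49 at 34 h and 39.3 ± 9.57 at 14 h), followed by the atypical repressor genes E2f7 and E2f8. E2f5 and Tfdp2, partners of pocket proteins and of E2Fs, were called at 34 h alone, each with 2 of 3 libraries at 34 h and 1 of 3 at 14 h. E2f4, the main E2F of DREAM, and E2f6 had no peak in any of 6 libraries. Of 15 kinases, cyclins and inhibitors that act on these complexes, 3 were called at each time and 7 had no peak in any library. Only 4415 of all 21887 genes had a peak in any library, so lacking one is the common state. Plk1, a mitotic kinase gene (21.1 ± 6.80 at 34 h and 37.7 ± 8.10 at 14 h), and the cyclin gene Ccna2 (8.62 ± 3.48 at 34 h and 13.1 ± 2.56 at 14 h) were in all 6 libraries. Dyrk1a, the kinase that phosphorylates LIN52, was called at 34 h alone (2 of 3 libraries at 34 h and 1 of 3 at 14 h), and Ccne1, the G1/S cyclin gene, at 14 h alone (1 of 3 libraries at 34 h and 3 of 3 at 14 h). Calls at 34 h alone were found for 5.51% of all genes, and calls at 14 h alone for 0.768%. Of the 4 family members and paralogs, Mybl1, which encodes A-Myb, had a peak in all 6 libraries (8.94 ± 0.667 at 34 h and 10.7 ± 2.68 at 14 h), and Myb, Rbbp7 and Tesmin had none. All SDs here are over 3 libraries, and no difference between times was tested on fold.

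**Figure D5:**
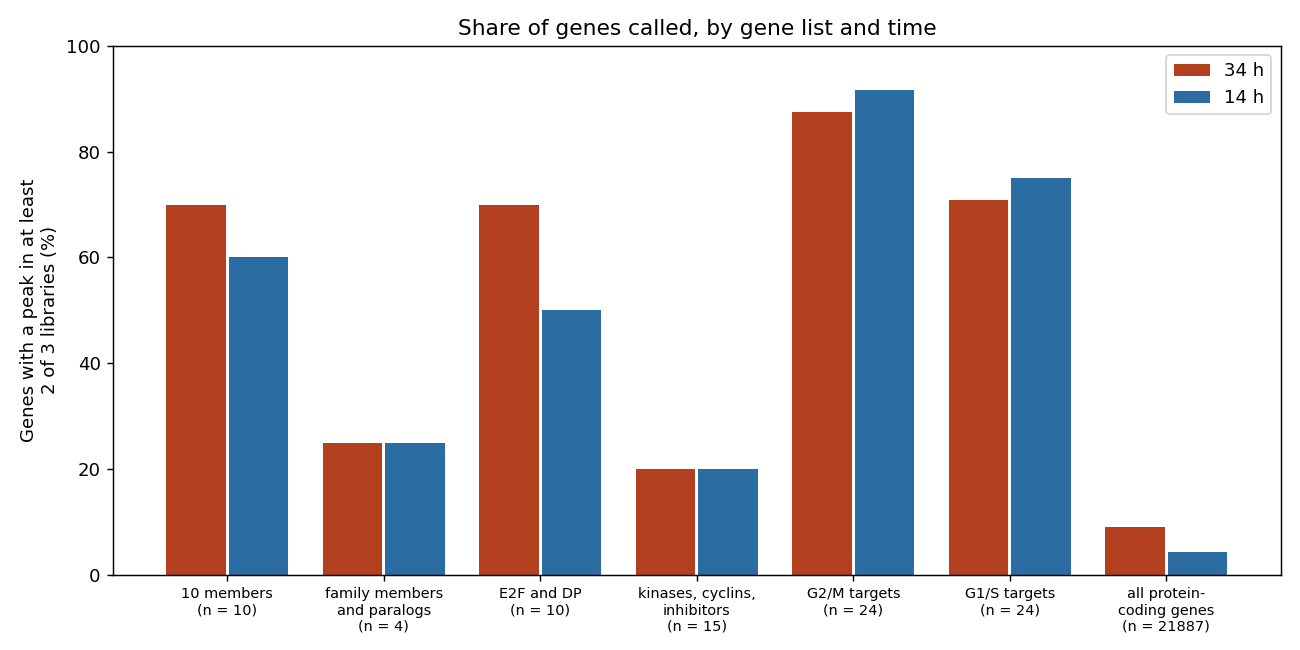
Share of genes (percent) with a peak in at least 2 of 3 libraries at 34 h and at 14 h, for the 10 member genes, for the other lists of the pathway and for all protein-coding genes. The members stand at 70.0% at 34 h and 60.0% at 14 h, and all protein-coding genes at 9.01% at 34 h and 4.27% at 14 h.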

How the data were processed

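The submitters' processing notes name Subread, MACS2 and the mm10 build, without versions or a threshold for peaks. The deposited lists, by their names, hold peaks of single IP libraries, each called with the matching input. In them the authors deposited the summit's fold, a linear ratio over local background, together with the −log10 of its p-value and of its q-value and the summit offset. The deposited score restates −log10 q and was not used further.

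Gene boundaries came from RefSeq on GRCm38.p6. Peaks and gene windows (gene plus 1 kb) had to overlap by at least 1 bp. IP fragments k and background b at a summit were solved from fold = (k + 1)/(b + 1) and the Poisson p-value, to within 0.001 on the −log10 p scale, which gave 1 solution for 100% of peaks on standard chromosomes. Peaks overlapping by 1 bp were merged into regions across libraries. Presence of a peak was compared between times with an exact two-sided permutation test, adjusted by Benjamini-Hochberg over 4415 genes; 3 against 3 libraries cannot go below p = 0.1, so no gene could pass 0.05. Window overlap, this test and the fragment solution were tested on simulated data. Named genes outside the members were the 4 of highest mean fold in each list among those in all 6 libraries, and up to 4 called at one time alone. Genes sharing a member's peak were also named. E2f4, E2f6, Myb, Rbbp7 and Tesmin were named outside this rule, for having no peak, and not all genes without a peak were named. Members, lists and rules were chosen with earlier results of these data known, and ranks within shared regions, summit shifts and the second E2F word after the values had been seen. Python 3.11.15, pandas 2.3.3, NumPy 2.4.6 and SciPy 1.17.1 were used.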

Additional observations from a re-analysis of the deposited data

How the results depend on the processing

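The main counts were 7 of 10 members at 34 h and 6 of 10 at 14 h. With lists of equal length the count at 34 h was 4, with Lin52, Rb1 and Rbl1 lost. The count at 14 h was then 5, with Rbl2 lost, and the share of all genes was 3.16% at 34 h and 3.76% at 14 h. Counting any library, 19.1% of all genes at 34 h and 6.96% at 14 h had a peak, with 9 and 7 members. Leaving out each replicate, with both remaining libraries required, gave 5 to 7 members at 34 h and 5 to 6 at 14 h, and 3.98% to 8.44% and 2.99% to 3.73% of all genes. A −log10 q of at least 5, windows at gene ends alone, windows of 5 kb and summits in place of peaks left the counts at 7 and 6. Without Lin52, Rbbp4 and Foxm1, whose regions lie within 1 kb of another gene's boundary, 5 of 7 were called at each time. Of 200 member calls under alternatives, 184 kept their side, 13 were lost and 3 were gained, and all 16 changes were at Lin37, Lin52, Rbbp4, Rb1, Rbl1 or Rbl2.

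With the replicate number as a block, 0 of 4415 genes passed (smallest exact permutation p 0.25), as without it (0 genes, 0 also at an unadjusted p under 0.05, smallest p 0.1). Same-numbered libraries deviated with correlations of 0.0455, 0.260 and 0.0825 over 428 regions, and different-numbered ones with −0.194 to 0.124. Replicates 1 and 2 of 34 h each correlated best with the same number of 14 h, and replicate 3 of 34 h with replicate 1 of 14 h (0.124). These values do not settle whether the numbers pair the samples, and the main test did not pair them. Summits at Rb1, Rbl2 and Lin37 stood on 16 to 20 fragments, below the medians of their own lists (19 to 24).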

Other observations

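Words of the cell cycle promoters were also counted over all RefSeq windows that held a summit. Of 21263 windows, 1038 held a summit in at least 2 libraries of 34 h and 541 in at least 2 of 14 h. E2F words of the first form were in 34.9% of those of 34 h, in 48.6% of those of 14 h and in 12.1% of all windows. CHR words were in 25.3% of those of 34 h, in 34.8% of those of 14 h and in 17.6% of all windows. CCAAT boxes were in 64.8% of those of 34 h, in 58.6% of those of 14 h and in 38.2% of all windows. The forkhead word was in 7.32% of those of 34 h, in 7.39% of those of 14 h and in 11.5% of all windows. GC boxes were in 74.9% of those of 34 h, in 76.2% of those of 14 h and in 46.2% of all windows. The sets of the times share windows, and the base composition of the windows was not matched.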
